A study of Mus musculus with 6 samples.

Results

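Peg3, Usp29, Ndn, Magel2, Snrpn, Ube3a, Nnat, Impact, Gnas and Zrsr1 are imprinted genes of 6 loci on 4 chromosomes, and their level was compared between CS and Con libraries of the mouse vBNST, the ventral part of the bed nucleus of the stria terminalis, a forebrain region studied for sustained anxiety. The genes were taken by name, and all 10 were found among the 29547 rows of the expression table. The RNA was that of ribosomes pulled down through phosphorylated S6, a ribosomal protein whose phosphorylation accompanies neuronal activity. There were 3 libraries labelled CS and 3 labelled Con, and tissue was collected 90 min after testing with CS+ or CS-. Which cue the CS libraries stand for, and what the Con animals received, is not stated in the labels, nor are strain, age and genotype. Whether replicate libraries are different animals is also not stated, so p-values describe only the spread between libraries, possibly a technical one. Input RNA was not analysed here, so a level cannot be split into abundance in the tissue and recovery with phosphorylated ribosomes.

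An imprinted gene is transcribed mainly or only from the copy inherited from one parent, because DNA methylation set in the egg or the sperm marks one copy of a control region. Many such genes are strongly transcribed in the brain, among them genes of maternal care, feeding and growth, and several are imprinted in neurons and not elsewhere. Peg3, Usp29, Ndn, Magel2, Snrpn, Nnat, Impact and Zrsr1 are transcribed from the paternal copy in the mouse. Ube3a is maternal in neurons, and Gnas gives maternal, paternal and biparental transcripts from alternative promoters. The values below are sums over both copies, so which copy a read came from was not measured.

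Promoter sequences from RefSeq (GRCm38.p6; 250 bases before to 50 after each start site) were matched for 9 of the 10 genes, in 15 windows. The Peg3 window (chr7:6730370-6730669, minus strand) is shown because Peg3 and Usp29 start back to back, with start sites 164 bases apart, so 263 of its bases are also the Usp29 window read on the other strand. Capitals mark a cyclic AMP response element, TGACGTCA, the sequence bound by the activity-regulated factor CREB, searched on both strands.
Peg3: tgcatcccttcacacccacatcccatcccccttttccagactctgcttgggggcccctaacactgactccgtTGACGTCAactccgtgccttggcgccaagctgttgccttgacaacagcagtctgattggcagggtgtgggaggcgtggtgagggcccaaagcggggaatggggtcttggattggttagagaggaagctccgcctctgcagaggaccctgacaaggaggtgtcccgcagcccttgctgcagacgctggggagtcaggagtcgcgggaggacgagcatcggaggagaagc
This element was present in 588 of 32851 promoter windows (1.79%). A second 8-base sequence, CGCATGCG, the core recognised by nuclear respiratory factor NRF-1, was searched on both strands after the windows had been seen. It was found in 6 windows of 3 genes (Nnat, Ndn and all 4 Snrpn windows) and in 615 of all 32851 windows (1.87%). The stretches around it, with the core in capitals, show nearly the same bases before the core in 3 of the 4 Snrpn windows and other bases in the remaining one, in Nnat and in Ndn.
Nnat chr2:157560038-157560075 (+): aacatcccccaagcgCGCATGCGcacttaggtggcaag
Snrpn chr7:60450218-60450255 (-): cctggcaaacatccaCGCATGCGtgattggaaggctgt
Snrpn chr7:60140281-60140318 (-): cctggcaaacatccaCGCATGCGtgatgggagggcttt
Snrpn chr7:60048027-60048064 (-): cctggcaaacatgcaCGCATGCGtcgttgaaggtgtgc
Snrpn chr7:60005150-60005178 (-): agccattgcctgggaCGCATGCGtaggga
Ndn chr7:62348239-62348276 (+): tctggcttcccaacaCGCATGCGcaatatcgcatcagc
A match describes letters in the window and not a bound site. Some windows do not meet the start of the counted row. The Ndn window lies inside the Ndn row, while 1 Snrpn window (chr7:60450128-60450427) and the Zrsr1 window (chr11:22971755-22972054) lie outside theirs. CpG dinucleotides numbered 2 to 40 in the windows of the 9 genes, with 2 to 7 in Snrpn and 16 to 40 in the 4 Gnas windows, against a median of 7 over all windows.

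Levels were given as RPKM (reads per kilobase of gene length per 1000000 assigned reads). Assigned reads numbered 1578775, 1365181 and 2342686 in CS libraries 1, 2 and 3, and 765769, 1200995 and 1427784 in Con libraries 1, 2 and 3. One read on a gene of 1 kilobase therefore equals 0.427 to 1.31 RPKM. In the deposited values the median of all tested rows was 0.41 higher in CS on the log2 scale, and subtracting each library's median deviation removed 0.37 of this, leaving 0.03. Levels below are RPKM after this median scaling unless said otherwise. All neuronal markers listed had reads, but marker sums differed between groups. The 5 pan-neuronal markers (Snap25, Syt1, Rbfox3, Tubb3 and Eno2) summed to 251 to 286 scaled RPKM in CS and 312 to 357 in Con. The 5 oligodendrocyte markers summed to 59.4 to 145 in CS and 158 to 256 in Con, and neither pair of ranges overlapped. Sums overlapped for GABAergic (32.8 to 49.0 in CS, 29.8 to 35.9 in Con), microglial (25.6 to 34.0 in CS, 33.0 to 48.6 in Con) and astrocyte markers (50.6 to 60.7 in CS, 49.7 to 63.7 in Con). Sums also overlapped for glutamatergic, endothelial, oligodendrocyte precursor and ependymal or choroid plexus markers. No marker passed the test, and their part in the results below was not tested. In such bulk samples fewer cells of a type and less RNA per cell cannot be told apart.

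The 10 genes covered a wide range of levels, with 7 of them above 90% of the 20550 tested rows. Peg3 had the highest level of the set, with a mean of 195 scaled RPKM over the 6 libraries, followed by Gnas at 135 and Snrpn at 123. Nnat averaged 57.1, Impact and Zrsr1 34.5 each, and Ndn 20.4 scaled RPKM. Ube3a at 5.43, Usp29 at 3.33 and Magel2 at 2.73 scaled RPKM were the lowest. Neighbours in this order whose ranges over the 6 libraries did not overlap were Snrpn above Nnat (2.16-fold), Nnat above Impact (1.65-fold), Ndn above Ube3a (3.77-fold) and Ube3a above Usp29 (1.63-fold). The ranges of Peg3 and Gnas overlapped, although Peg3 was the higher in 6 of 6 libraries. Gnas and Snrpn changed places between libraries, as did Impact and Zrsr1, and Usp29 and Magel2. Peg3 alone held 52.4% of the 44015 reads of the 10 genes.

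**Figure D1:**
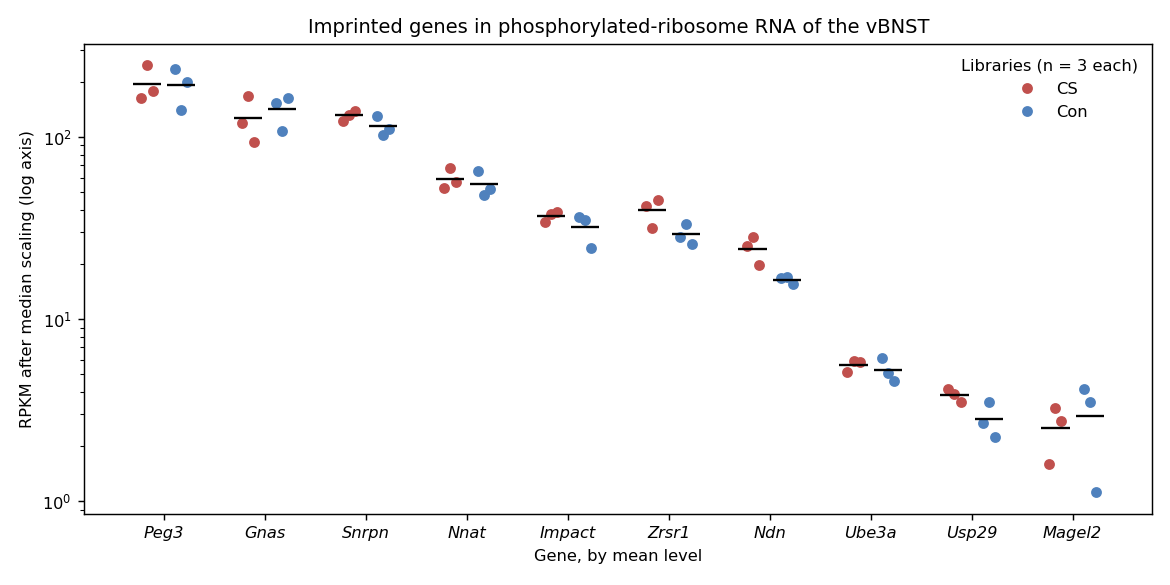
Level of each gene in every library, as RPKM after median scaling on a log axis. Points are libraries, with CS left of Con, and black lines are group means (n = 3 each). Peg3, Gnas and Snrpn are the 3 highest, and the CS and Con points are apart for Ndn only.

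No member passed the test between CS and Con. By limma on log2(RPKM + 0.1), with p-values adjusted over 20550 rows, 0 of the 10 genes had an adjusted p under 0.05, where 199 of all tested rows did (0.968%; 36 higher in CS and 163 lower). Counting unadjusted p under 0.05 it was 1 gene, Ndn, against 12.5% of all rows. Limma with voom weights on the recovered reads and TMM scaling called 0 of the 10, against 6.79% of its rows called (0.248% higher and 6.54% lower). At an unadjusted p under 0.05 this fit had 1 of the 10, against 2046 of the 10456 tested rows that voom also covered. Voom scaled by library totals called 1, Ndn, against 5.02% of its rows called and 2.6% called higher. Its count at an unadjusted p under 0.05 was 7 of the 10, against 3188 of the same 10456 rows. Estimates were above 0 for 8 of the 10 genes, with a median of 0.15, against 52% of all rows and a median of 0.03. On the deposited values all 10 estimates were above 0, with a median of 0.53 against 0.41 for all rows, and 7 of the 10 genes had every CS library above every Con library, against 18.5% of all rows. The 95% interval of the difference lay within a 2-fold change in either direction for 8 of the 10 genes, the exceptions being Usp29 and Magel2, 2 of the 3 least abundant.

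**Figure D2:**
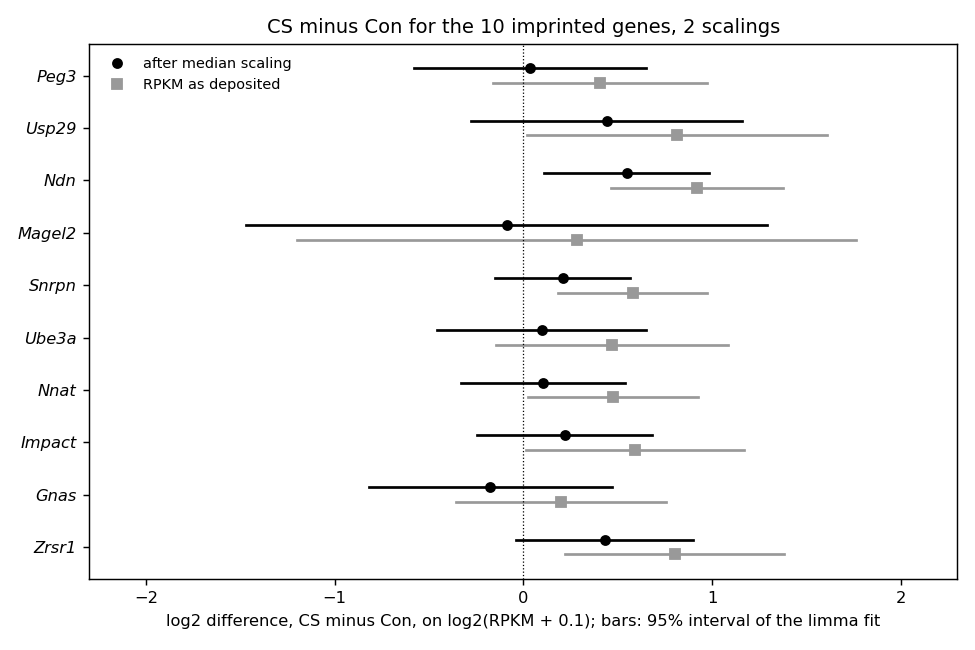
CS minus Con difference of each gene on the log2(RPKM + 0.1) scale. Black circles use median-scaled values, grey squares the deposited values, and bars are 95% intervals of the limma fit (n = 3 each). After scaling only the Ndn interval leaves out 0, and each deposited estimate lies 0.37 to the right of the scaled one.

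Ndn was the gene with the largest estimate. It encodes necdin, a MAGE-family protein of postmitotic neurons that restrains cell cycle entry and supports neuronal survival. Its row is a single exon at chr7:62346569-62350262 (GRCm38, plus strand). The promoter window (chr7:62348027-62348326) lies inside this row, so row and window place the start of Ndn differently. Its level was 25.3, 28.1 and 19.8 scaled RPKM in CS libraries 1 to 3, and 16.8, 16.98 and 15.7 in Con libraries 1 to 3. Every CS library was above every Con library, which held for 7.93% of all tested rows and, among the 10 genes, for Ndn alone. The mean was 24.4 ± 4.20 in CS and 16.5 ± 0.721 in Con (SD, n = 3 each), a log2 difference of 0.55 ± 0.18 (SE), or 1.46-fold with a 95% interval of 1.08 to 1.98. Its limma adjusted p was 0.280. The voom fit on library totals gave a log2 difference of 0.91 and an adjusted p of 0.0408, and with TMM scaling the adjusted p was 0.166. These values rested on 530 reads in CS and 182 in Con.

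Magel2 lies beside Ndn (chr7:62377010-62381640, plus strand) and also encodes a MAGE-family protein, one that enhances a ubiquitin ligase in endosomal protein recycling. Its level was 1.60, 3.24 and 2.75 scaled RPKM in CS and 4.15, 3.52 and 1.12 in Con, from 13, 23 and 36 reads in CS and 13, 19 and 6 in Con. The groups overlapped entirely, and the Con libraries alone spanned the whole range. The log2 difference was -0.09 ± 0.58 (SE; limma adjusted p = 0.960), with a 95% interval from -1.47 to 1.29, so this depth could not show whether Magel2 changed by up to 2-fold either way. The ratio of Ndn to Magel2 within a library was 10.6 ± 4.61 in CS and 7.62 ± 5.54 in Con (SD, n = 3 each). Both rows lie within the span of Gm45009 on the opposite strand but share no exonic bases with it.

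Snrpn and Ube3a belong to the same imprinted domain of chromosome 7, with opposite parental origin. Snrpn (chr7:59982495-60140219, minus strand) encodes SmN, a core protein of spliceosomal ribonucleoproteins that is enriched in neurons. Its level was 123, 133 and 140 scaled RPKM in CS, against 130, 103 and 111 in Con. The means were 132 ± 8.54 and 115 ± 13.96 in these groups (SD, n = 3 each), and Con library 1 lay among the CS libraries. It had a log2 difference of 0.21 ± 0.15 (SE; limma adjusted p = 0.643).

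Ube3a (chr7:59228750-59311536, plus strand) encodes a HECT-type ubiquitin ligase needed for experience-dependent synaptic plasticity. Its level was 5.14, 5.89 and 5.82 scaled RPKM in CS and 6.09, 5.08 and 4.56 in Con, so the highest and the lowest value both came from Con. This gave a log2 difference of 0.10 ± 0.23 (SE; limma adjusted p = 0.899). Ube3a was the steadiest of the set, its highest library being 1.34 times its lowest. Snrpn divided by Ube3a was also steady, at 23.5 ± 0.803 in CS and 22.0 ± 2.07 in Con (SD, n = 3 each), with all 6 libraries between 20.3 and 24.3.

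The counts of this domain are shared with other rows of the table. Snurf, which encodes a small protein from the first exons of the Snrpn transcript, has all of its 216 exonic bases inside Snrpn exons and still held 621 reads, or 25.0% of the Snrpn count. Its log2 difference was 0.00 to 2 decimals. Gm38393, on the same strand, shares 589 exonic bases with Snrpn and held 1232 reads, at a log2 difference of 0.03 ± 0.20 (SE; limma adjusted p = 0.964). Snhg14, the host of the antisense transcript that silences the paternal Ube3a copy, shares 1803 exonic bases with Ube3a on the opposite strand. It averaged 7.52 ± 0.655 scaled RPKM in CS and 5.64 ± 1.62 in Con (SD, n = 3 each), a log2 difference of 0.44 ± 0.28 (SE; limma adjusted p = 0.590). Another row opposite Ube3a, 9330162G02Rik, shares 1796 exonic bases and was named after its values were seen. It averaged 2.03 ± 0.225 scaled RPKM in CS and 4.53 ± 1.14 in Con (SD, n = 3 each), with every CS library below every Con library (11.2% of all rows). At a log2 difference of -1.11 ± 0.32 (SE) its limma adjusted p was 0.212, and 0.0103 by voom with TMM scaling. No source used here gives the strand setting of the counting. Whether reads of Ube3a were also counted for rows opposite it was not measured.

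The neighbours of the domain did not pass the test either. Herc2, a giant ubiquitin ligase that binds Ube3a, had 21.4, 20.0 and 20.8 scaled RPKM in CS, against 17.3, 16.996 and 16.9 in Con. Every CS library was above every Con library, as in 7.93% of all rows, at a log2 difference of 0.28 ± 0.14 (SE; limma adjusted p = 0.487). The GABA-A receptor subunit genes Gabra5 and Gabrg3 had estimates of -0.42 and -0.13 (limma adjusted p 0.754 and 0.934). Atp10a had 20 reads in CS and 13 in Con. Mkrn3, with 8 reads in CS and 1 in Con, and Peg12, with 2 in each, were too low to be tested.

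Peg3 (chr7:6703892-6730431, minus strand) encodes a zinc finger protein of the maternal care and p53 response pathways. Its level was 163, 248 and 179 scaled RPKM in CS and 238, 141 and 202 in Con, and the ranges overlapped almost fully. The mean was 197 ± 45.0 in CS and 193 ± 48.9 in Con (SD, n = 3 each). The log2 difference was 0.03 ± 0.26 (SE; limma adjusted p = 0.964), with a 95% interval from -0.58 to 0.65. Peg3 was covered by 15617 CS reads and 7435 Con reads, and no other row of the table overlaps it. What lay behind the spread of Peg3 between libraries was not tested. Its share of assigned reads was 0.30 ± 0.065% in CS and 0.23 ± 0.049% in Con (SD, n = 3 each). The highest libraries for Peg3 were CS 2 and Con 1, and the lowest was Con 2.

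Usp29 (chr7:6730578-6967219, plus strand), which starts from the other side of the shared promoter, encodes a ubiquitin-specific protease. Its level was 4.16, 3.86 and 3.51 scaled RPKM in CS, against 2.70, 3.52 and 2.24 in Con. Con library 2 was just above the lowest CS library, so the groups overlapped by this 1 value. Its estimate was a log2 difference of 0.44 ± 0.30 (SE; limma adjusted p = 0.614) from 418 reads in CS and 154 in Con. Peg3 divided by Usp29 was 51.5 ± 12.4 in CS and 72.6 ± 28.2 in Con (SD, n = 3 each), and Peg3 was at least 39.3 times Usp29 in every library.

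Other genes of the Peg3 domain overlap Usp29 or lie beyond it. Zim3, a zinc finger gene on the opposite strand, shares 2582 exonic bases with Usp29, or 68.8% of its own. It averaged 9.10 ± 1.99 scaled RPKM in CS and 5.57 ± 1.73 in Con (SD, n = 3 each), a log2 difference of 0.71 ± 0.30 (SE; limma adjusted p = 0.410). Zim1, a maternally transcribed zinc finger gene, had 4.01, 3.31 and 3.63 in CS and 2.01, 2.12 and 2.99 in Con. Every CS library was above every Con library, as in 7.93% of all rows, at a log2 difference of 0.61 ± 0.31 (SE; limma adjusted p = 0.492). Zfp264, at 0 reads in CS against 4 in Con, fell under the filter.

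Gnas (chr2:174284320-174346744, plus strand) encodes the stimulatory G protein alpha subunit, which couples receptors to cyclic AMP production. Its level was 119, 169 and 94.1 scaled RPKM in CS and 154, 108 and 164 in Con. The lowest value and the highest both came from CS, and the log2 difference was -0.17 ± 0.27 (SE; limma adjusted p = 0.822). On the deposited values the estimate had the other sign, 0.20. The row is uncertain because Gm20721, annotated on the opposite strand, has 99.0% of its 1484 exonic bases inside Gnas exons.

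Gm20721 was named after its values were seen. It held 3143 reads in CS and 1068 in Con, equal to 38.6, 29.9 and 46.2% of the Gnas count in CS libraries and 22.7, 28.9 and 18.8% in Con libraries. Its level was 352 ± 26.8 scaled RPKM in CS and 243 ± 16.5 in Con (SD, n = 3 each), with every CS library above every Con library (7.93% of all rows). The log2 difference was 0.53 ± 0.15 (SE), with a limma adjusted p of 0.186, which became 0.0416 by voom with TMM scaling. Nespas, the paternally transcribed antisense RNA of the locus, averaged 9.70 ± 3.88 scaled RPKM in CS and 7.26 ± 0.611 in Con (SD, n = 3 each; limma adjusted p = 0.734).

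Nnat (chr2:157560078-157562522, plus strand) encodes neuronatin, a small membrane protein of the endoplasmic reticulum that modulates calcium stores. Its level was 52.3, 67.8 and 56.9 scaled RPKM in CS and 65.5, 47.9 and 51.9 in Con, with overlapping groups. Between groups Nnat had a log2 difference of 0.10 ± 0.18 (SE; limma adjusted p = 0.856), with a 95% interval from -0.33 to 0.54. Nnat lies in an intron of Blcap, a gene linked to apoptosis, with which it shares no exonic bases. Blcap averaged 10.2 ± 1.21 scaled RPKM in CS and 10.1 ± 2.29 in Con (SD, n = 3 each), and the ratio of Nnat to Blcap was 5.84 ± 0.973 in CS and 5.54 ± 0.682 in Con.

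Impact, on chromosome 18, encodes a protein that binds GCN1 and restrains the eIF2 alpha kinase GCN2, a brake on translation during amino acid shortage. Its level was 34.2, 38.1 and 38.6 scaled RPKM in CS and 36.6, 35.0 and 24.6 in Con. Con library 3 was the lowest, and the other 5 libraries lay close together. The mean was 36.9 ± 2.40 in CS and 32.1 ± 6.51 in Con (SD, n = 3 each). The log2 difference was 0.22 ± 0.19 (SE; limma adjusted p = 0.703). No other row overlaps Impact.

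Zrsr1 (chr11:22973215-22976496, plus strand) is a retrogene within Commd1, with which it shares 203 exonic bases on the opposite strand (6.19% of its own), and encodes a relative of the small U2AF splicing factor subunit that acts in 3′ splice site recognition of minor introns. Its level was 42.0, 31.6 and 45.4 scaled RPKM in CS and 28.4, 33.5 and 25.8 in Con. CS libraries 1 and 3 were above all Con libraries and CS library 2 was within their range. The mean was 39.7 ± 7.18 in CS and 29.2 ± 3.93 in Con (SD, n = 3 each), a log2 difference of 0.43 ± 0.20 (SE; limma adjusted p = 0.433). Commd1, a copper and endosomal trafficking gene, had 4.80, 3.08 and 3.46 in CS and 1.25, 1.59 and 2.33 in Con, from 136 reads in CS and 32 in Con. All CS libraries were above all Con libraries, as in 7.93% of all rows. The log2 difference of Commd1 was 1.09 ± 0.38 (SE; limma adjusted p = 0.307).

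Ratios of transcripts of the same locus do not depend on how libraries are scaled. Pairs numbered 7 and were chosen after the values had been seen. By an exact two-sided permutation test, whose smallest p with 3 against 3 libraries is 0.1, no pair could pass the threshold. Gnas divided by Nespas was 12.7, 12.3 and 15.8 in CS and 20.4, 16.5 and 21.3 in Con, without overlap (exact p = 0.1, Benjamini-Hochberg adjusted over the 7 pairs 0.35). Gnas divided by Gm20721 was 0.358 ± 0.0790 in CS and 0.584 ± 0.123 in Con (SD, n = 3 each), also without overlap (exact p = 0.1, adjusted 0.35). Gm20721 has 99.0% of its exonic bases inside Gnas exons, and whether the same reads were counted in both rows was not measured. That ratio may therefore not compare separate transcripts. The ratio was overlapping between groups for the other 5 pairs, including Zrsr1 divided by Commd1 at 10.7 ± 2.22 in CS and 18.3 ± 6.32 in Con (SD, n = 3 each; exact p = 0.2).

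**Figure D3:**
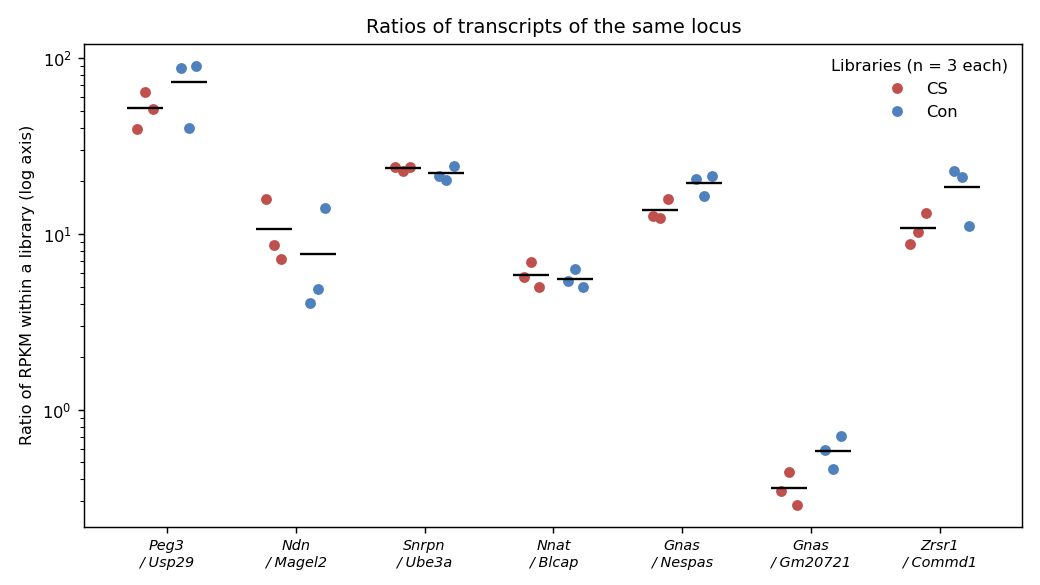
Ratio of RPKM of 2 transcripts of a locus within each library, on a log axis. Points are libraries, CS left of Con, and black lines are group means (n = 3 each). Only Gnas over Nespas and Gnas over Gm20721 have CS points below all Con points, and Snrpn over Ube3a is the tightest pair. Gm20721 exons lie almost wholly inside Gnas exons, so the same reads may be counted in both rows.

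Among 60 further imprinted genes and locus neighbours, 55 had a row under the listed symbol and 45 were tested, while Zim2, Peg3os and Gnasas1 were not analysed here. Their estimates were above 0 for 24 and below 0 for 21, with a median of 0.03, the same to 2 decimals as that of all rows. None was called higher in CS (0.175% of all rows) and 1 was called lower (0.793% of all rows). With unadjusted p under 0.05 the counts were 2 higher and 4 lower, against 774 (3.77%) higher and 1803 lower of all 20550 rows. All CS libraries were above all Con libraries for 9 of the 45 and below for 4, against 7.93% and 11.2% of all rows. Voom with TMM scaling called 0 higher (0.248% of its rows) and 2 lower (6.54%). The gene called was Nap1l5, an imprinted retrogene of a nucleosome assembly protein family, transcribed in brain from the paternal copy. It had 602, 651 and 634 scaled RPKM in CS and 2014, 1529 and 2109 in Con. The CS libraries were all below the Con libraries, as in 11.2% of all rows. It fell to 629 ± 24.6 in CS, against 1884 ± 311 in Con (SD, n = 3 each), a log2 difference of -1.57 ± 0.21 (SE; limma adjusted p = 0.0311). Voom also called it, with an adjusted p of 0.000367 with TMM scaling and 0.00322 on library totals. The limma call was lost on the deposited values (log2 difference -1.20, adjusted p = 0.0774) and after quantile normalization, which brought the log2 difference to -0.83 (adjusted p = 0.185). It was also lost without the filter on low values (limma adjusted p = 0.0948), without a variance trend (0.119) and with a replicate block (0.320). Of 16 alternatives, 10 lost the call of Nap1l5 and 6 kept it. Leaving out single libraries gave log2 differences from -1.70 to -1.47 and adjusted p from 0.0405 to 0.185.

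**Figure D4:**
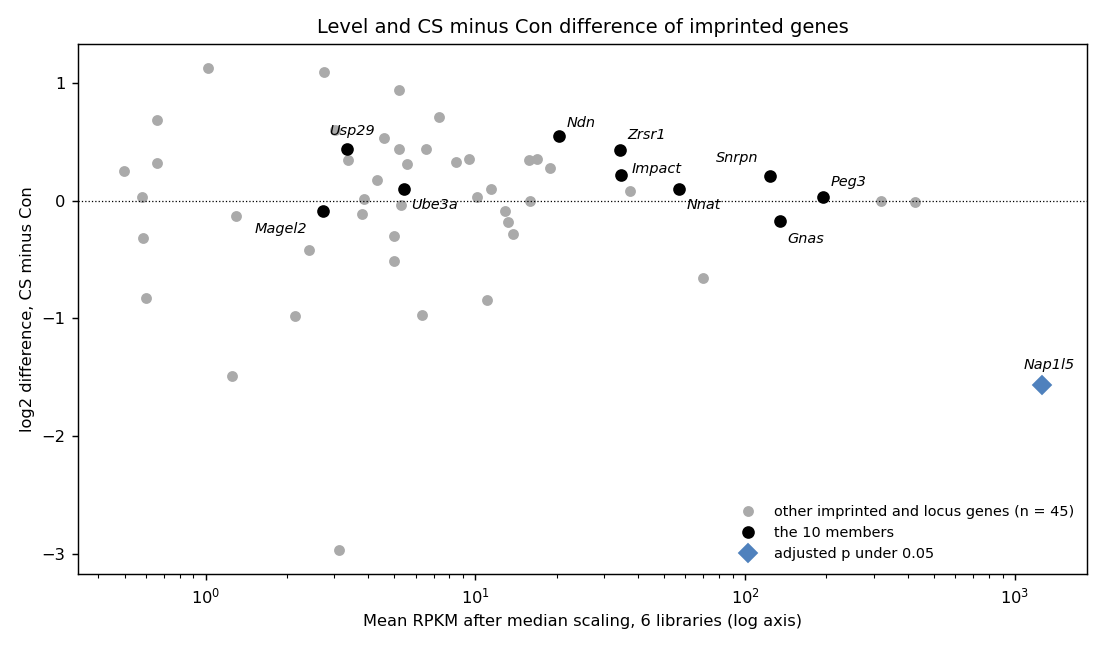
Mean level over 6 libraries (scaled RPKM, log axis) against the CS minus Con log2 difference. Black points are the 10 genes, grey points 45 other imprinted or locus genes, and the diamond is the gene with an adjusted p under 0.05. Nap1l5 is the only diamond, at -1.57, and the 10 genes lie between -0.17 and 0.55.

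Of 56 genes whose products are relatives or partners of the 10 proteins, 55 had a row under the listed symbol and 53 were tested, with 31 estimates above 0 and 22 below and a median of 0.11. None was called higher (0.175% of all rows) and 2 were called lower (0.793%), with 6 higher and 4 lower at an unadjusted p under 0.05. Voom with TMM scaling called 0 higher (0.248% of its rows) and 4 lower (6.54%). Snrpe, another core Sm protein and a partner of SmN, had 2.91, 3.81 and 2.06 scaled RPKM in CS and 12.9, 10.6 and 11.95 in Con, a log2 difference of -2.03 ± 0.29 (SE; limma adjusted p = 0.0361). This value rested on 23 reads in CS and 48 in Con. Gnao1, the alpha subunit of the Go protein abundant in neurons, fell to 23.9 ± 2.86 scaled RPKM in CS, against 49.8 ± 2.91 in Con (SD, n = 3 each). Its log2 difference was -1.06 ± 0.15 (SE; limma adjusted p = 0.0385). Both were also called by voom with TMM scaling (adjusted p = 0.0156 for Snrpe and 0.00251 for Gnao1). Leaving out any 1 library ended the limma calls, with log2 differences from -2.22 to -1.79 and adjusted p from 0.0780 to 0.153 for Snrpe, and -1.10 to -0.95 and 0.0724 to 0.134 for Gnao1. On the deposited values the limma adjusted p was 0.0776 for Snrpe and 0.139 for Gnao1. For each of these genes, 12 of 16 alternatives lost the call and 4 kept it. The other 2 genes called lower by voom with TMM scaling were the adenylyl cyclase Adcy5, at -1.36 ± 0.27 in the limma fit (SE; adjusted p = 0.0860, by voom 0.00366), and Snrnp70, a protein of the U1 spliceosomal particle, at -0.74 ± 0.16 (SE; adjusted p = 0.105, by voom 0.0189). The neuronal and oligodendrocyte marker sums were also lower in CS, and their part in these calls was not tested.

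The closest relatives and partners of each product gave values on either side of 0. The splicing genes Snrpb, Snrpa and Snrpc had estimates of 0.57, 0.70 and -0.08. Zrsr2, the X-linked relative of Zrsr1, had 44.2, 46.0 and 46.1 scaled RPKM in CS and 37.2, 30.7 and 34.8 in Con. Its CS libraries were all above the Con libraries (7.93% of all rows), at 0.41 ± 0.14 (SE; limma adjusted p = 0.294). The estimates of U2af1 and U2af2, the subunits of the major splicing factor, were 0.27 and 0.31. The ubiquitin-conjugating enzymes Ube2l3, Ube2d2a and Ube2d3 had 0.55, -0.57 and -0.15, and the MAGE genes Maged1, Maged2 and Mageh1 had 0.03, 0.41 and 0.39. In the GCN2 pathway Eif2ak4, Gcn1l1 and Eif2s1 had -0.14, 0.32 and 0.30. Among G protein alpha subunits Gnal, Gnai1 and Gnai2 had 0.29, -0.05 and -0.07. The calcium store genes Atp2a2 and Itpr1 had -0.59 and 0.13, the apoptosis gene Bax 0.14, and the protease gene Usp37, with 51 reads in CS and 59 in Con, -1.08. All of these are log2 differences, CS minus Con, and none of them passed the limma test.

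Genes whose levels ran most like Peg3, Snrpn and Gnas over the libraries were sought. Likeness was the root mean square difference between 2 genes' log2 deviations over the 6 libraries, among 5014 genes with at least 200 reads, and a smaller value means more alike. For Peg3 the closest were Sf1 (0.0419), Znhit1 (0.0486) and Rbfox2 (0.0557), where the median over genes was 0.398. Among the members, Nnat was closest to Peg3, at 0.146, and Usp29, which shares its promoter region, was at 0.473. For Snrpn the closest were Epc2 (0.0263), Wnk2 (0.0310) and Ccdc149 (0.0312), with a median of 0.310 and Ube3a at 0.0967. For Gnas the closest were Agpat3 (0.0487), App (0.0494) and Spock2 (0.0525), with a median of 0.450 and Peg3 at 0.204. These values describe 6 libraries and carry no test.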

How the data were processed

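RNA precipitated with phosphorylated S6 was depleted of rRNA and made into stranded libraries, per the labels' protocols. The submitters' processing notes name Trimmomatic 0.36 and featureCounts of Subread 1.5.1, and the build GRCm38 (mm10). The aligner and the strand setting are not given in sources used here. The deposited values are RPKM per row, made by the authors. All values above 0 (100%) came to whole reads within 0.01 read, and those reads were recovered.

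Rows averaging 0.5 RPKM or more (20550) were tested on log2(RPKM + 0.1), after median scaling, with limma 3.58.1 in R 4.3.3 (trended empirical Bayes) and Benjamini-Hochberg adjustment over these rows. A fold on this scale understates changes of low genes. Voom on recovered reads, for rows with at least 60 reads, was an alternative and called 710 of 10463 rows. The members and lists were chosen with earlier results of these data known. Named were all members, genes of their loci, listed partners with at least 60 reads (up to 3 a member, in listed order), and listed genes past the threshold. A gene that this rule would name is not reported here.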

Additional observations from a re-analysis of the deposited data

How the results depend on the processing

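All tested rows gave 199 calls. This number was 112 with a pseudocount of 1, 107 without the filter on low values, 65 on the deposited values (35 higher in CS and 30 lower), 110 after quantile normalization, 710 by voom with TMM scaling and 525 by voom on library totals (272 higher and 253 lower). Without a variance trend it was 146 (111 higher and 35 lower). Leaving out 1 library at a time gave 0 calls (without CS replicate 1) to 225 (without Con replicate 2). Deviations from the group means had correlations of -0.0698, 0.00184 and 0.0160 between same-numbered libraries of the groups. Between libraries of different numbers they ranged from -0.0611 to 0.0557. Whether equal numbers mark pairs cannot be told from 3 libraries per group. With a replicate block 0 rows and 0 members were called. The member count was 0 under every alternative except voom on library totals, which gave 1 (Ndn). Of 160 member values under 16 alternatives, 145 kept direction and side of the threshold. Peg3 reversed to -0.047 without the filter. Magel2 reversed to 0.28 on the deposited values, 0.21 after quantile normalization, and 0.052 and 0.51 by voom with TMM and library totals. Gnas reversed to 0.20 on the deposited values, 0.17 after quantile normalization and 0.20 by voom on library totals. Leaving out single libraries gave -0.17 to 0.21 for Peg3, -0.63 to 0.25 for Magel2 and -0.38 to 0.037 for Gnas. The cause was not tested. The fewest reads lay behind Magel2 (110) and Usp29 (572).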
